A study of Homo sapiens with 6 samples.

Results

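The genes described here encode the machinery that licenses and copies DNA: 46 genes chosen by name, from the origin recognition complex to the proteins that finish the lagging strand, of 18404 named genes measured. Each gene was read from the probe sets that carry its symbol alone, and the brightest was used; only CLSPN had more than 1. RNA came from PrEC, an immortalized line of normal human prostate epithelial cells, in 2 versions. The reference cells carried the hairpin named shNT and the others a hairpin against PKCλ/ι, called shPKCi here; both were grown in the same prostate epithelial medium and harvested in the basal state at 48 hours from plating. There were 3 samples of each, described by the series as biological replicates, with 1 array per sample. The number of hairpin sequences or clones behind each line is not given in the sources used here. PRKCI, which encodes PKCλ/ι, had intensities of 1635, 1428 and 1843 on the shNT arrays and 800.3, 810.2 and 754 on the shPKCi arrays, with no overlap and with transcript left in the shPKCi cells; the difference was -1.05 log2 units (SE 0.11, adjusted p = 0.000279). The array of shNT replicate 2 correlated with the other 5 at 0.975 to 0.985, and these correlated among themselves at 0.984 to 0.994, so that the ranges overlap at their ends.

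Replication starts in 2 steps that the cell cycle keeps apart. In G1 the origin recognition complex and CDC6 sit on an origin and, with CDT1, load the ring-shaped MCM2-7 helicase; geminin, the product of GMNN, later blocks CDT1 so that no origin is licensed again. In S phase the kinase of CDC7 and DBF4, with MCM10, CDC45 and the GINS complex, turns the loaded ring into an active helicase, after which primase with polymerase alpha, polymerases delta and epsilon, the PCNA clamp with its loader, RPA and the flap nuclease and ligase copy the strands. Many of these genes are known targets of E2F transcription factors, and their transcripts are generally higher in dividing than in resting epithelial cells.

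In shPKCi cells 17 of the 46 genes rose and none fell (limma with a Benjamini-Hochberg adjusted p under 0.05 over all 18404 genes). That is 37.0% of the members, beside 9.55% of all genes higher and 8.95% lower in the same fit. Most members were bright, with 42 above the median signal. In a fit of only the 9202 genes above it, 1985 genes were higher and 1580 lower. Of the 42 members, 18 were higher and 2 lower in that fit. At an unadjusted p under 0.05 in the fit of all genes, 22 members were higher and 3 lower. Of all 18404 genes, 2764 were higher and 2709 lower at that level. The risers were ORC2, ORC4, ORC5, ORC6, CDC6, MCM8, MCM10, DBF4, CDC45, GINS2, POLA1, POLA2, PRIM1, POLE2, RFC3, FEN1 and CLSPN, with log2 fold changes from 0.34 to 1.07; 1 of them, CLSPN, reached a 2-fold difference. The median log2 fold change was 0.24 over the members and -0.02 over all genes, and 35 members lay above 0. The 3 arrays of each group did not overlap in 23 members with shPKCi higher and in 5 with shPKCi lower; over all genes these shares were 18.0% and 17.8%. By role, 4 of 6 origin recognition genes and 3 of 4 primase and polymerase alpha genes rose, while none of the 6 genes of the MCM2-7 ring and none of the 3 RPA genes passed; the difference between roles was not tested. Each array reads a whole culture, so that a larger share of cells in S phase and more transcript per cell cannot be told apart.

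**Figure D1:**
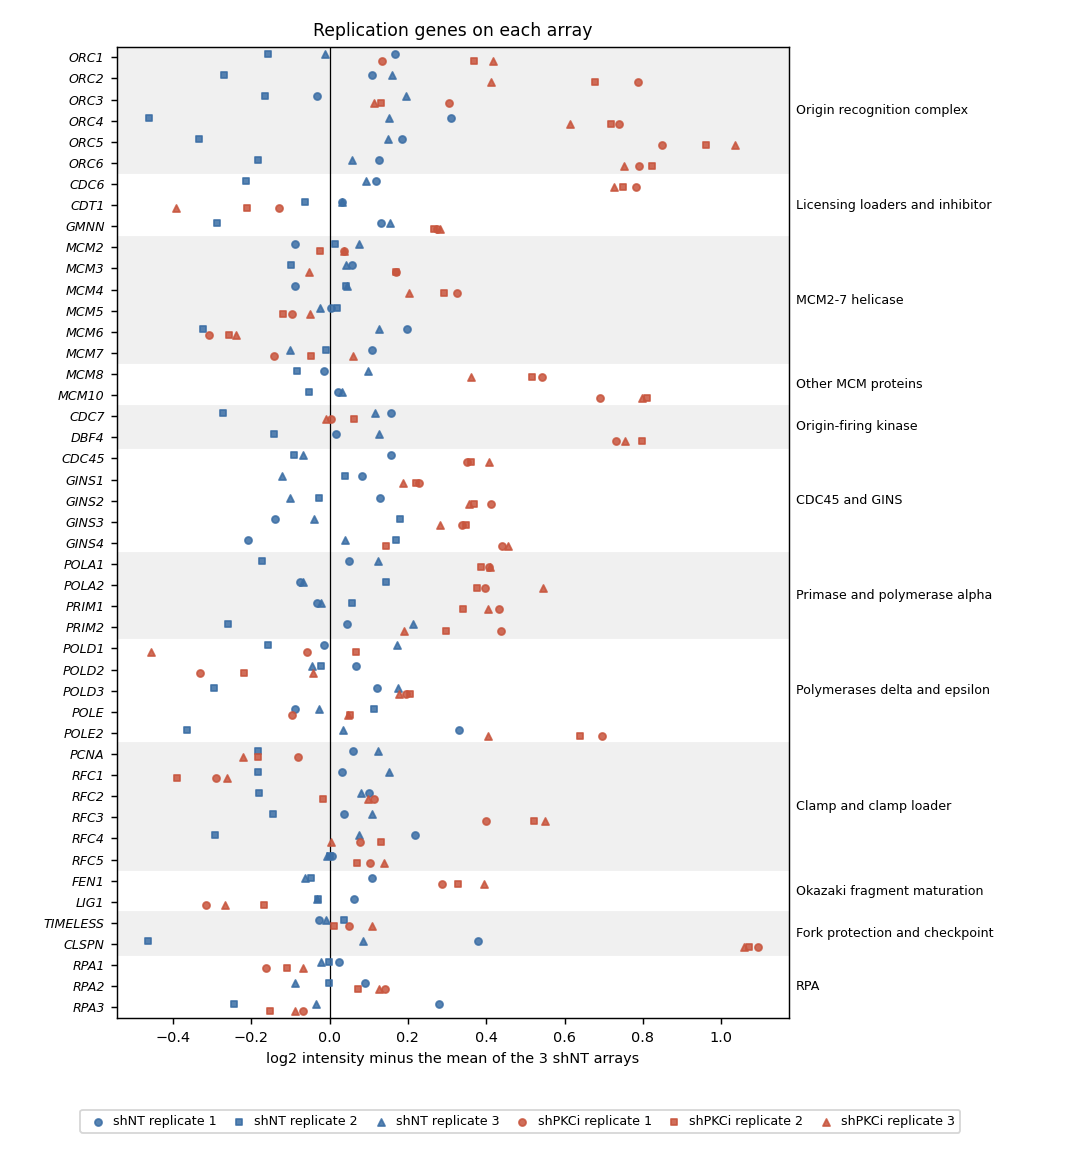
Log2 intensity of the 46 replication genes on each of the 6 arrays, relative to the mean of the 3 shNT arrays (x axis), with genes grouped by role (y axis); blue points are shNT, red points shPKCi, and the marker shape gives the replicate number. The red points lie right of all blue points in 23 genes, and shNT replicate 2 (blue squares) is the lowest shNT array in 28 of 46.

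One control array bears on many of these values. That of shNT replicate 2 was the lowest of the 3 shNT arrays in 28 of 46 members, beside 36.7% of all genes. Over all probe sets its log2 values had an interquartile range of 3.33, against 3.46 to 3.52 on the other arrays. Its median intensity was 48.6, against 44.9 to 45.7 on the others. The part of these array-wide differences in the members' values was not tested. Relative to each gene's mean over the 6 arrays, the median member lay at -0.20 on shNT replicate 2. It lay at -0.04 and -0.08 on shNT replicates 1 and 3, and at 0.12, 0.13 and 0.08 on shPKCi replicates 1 to 3. The shPKCi arrays were close to each other, with a median SD of 0.06 log2 units over the members (0.10 over all genes), against 0.15 among the shNT arrays (0.14 over all genes). Without shNT replicate 2 the members' median was 0.16, 18 members rose and 2 fell; of all genes, 10.5% rose and 10.6% fell in that fit. Of the 17 risers 16 were called again, POLE2 was not, and 4 others were gained: GINS3 and GINS4 rose, and MCM6 and RFC1 fell. Leaving out a single shPKCi array had a larger effect on the count, with 8, 6 and 9 members higher and 0 lower without shPKCi replicates 1, 2 and 3, when the genes higher over the whole array also dropped to 1072, 997 and 1165 from 1758. Without shNT replicate 1 or 3, 15 and 12 members rose. ORC5, ORC6, CDC6, MCM10, DBF4 and CLSPN passed in each of the 6 fits with 1 array left out.

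The start-site windows of these genes are shown because the members share sequence words there that the choice by name did not use. Promoter windows of 300 bases, from 250 before to 50 after the transcript start, were taken from RefSeq (GRCh38.p14); 40 of the 46 members matched, with 50 windows, since some genes have several starts. All 17 genes that rose matched, and 23 of the 29 that did not pass. Those without a window were MCM4, MCM5, GINS4, POLD3, RPA2 and RPA3. The E2F words searched were TTTCCCGC, TTTCGCGC, TTTGCCGC and TTTGGCGC on either strand, counted also where they overlap each other; the other words below were searched on both strands too. At least 1 such word was in 21 of the 50 windows (42.0%), beside 3.31% of all 35116 windows and 4.15% of the 20100 windows of genes on the array. Such a word was in 8 of 20 windows of genes that rose and in 13 of 30 windows of those that did not pass. CCAAT, the core of the NF-Y box, was in 28 member windows (56.0%). It was in 34.6% of all windows and 34.5% of windows of genes on the array. The E-box CACGTG was in 8 member windows (16.0%), beside 7.26% and 8.32%. Some windows of the same gene overlap, so that 1 site can count in more than 1 window. TTTGAA, the word of the cell cycle homology region known from genes of G2 and mitosis, was in 1 member window, that of DBF4 (2.0%). It was in 15.2% of all windows and 12.3% of windows of genes on the array. These matches describe letters in a window and not bound sites.

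The 6 windows that bear on the comparison follow, 5′ to 3′ in the direction of the gene, with E2F words in capitals. Those of CLSPN (chr1:35769929-35770228, minus strand), CDC6 (chr17:40287629-40287928, plus strand) and RFC3 (chr13:33817899-33818198, plus strand) belong to genes that rose and hold 1 word each. MCM6 (chr2:135876394-135876693, minus strand) and MCM3 (chr6:52284693-52284992, minus strand) belong to the MCM2-7 ring, did not pass in the fit of 6 arrays, and hold 4 and 2 words. MCM10 (chr10:13161308-13161607, plus strand) rose and has none of the E2F words searched in its window. Other forms of the E2F site were not searched in any window. The first base of the word lies 5 bases before the start in CLSPN, at base 8 after it in CDC6 and 55 bases before it in RFC3; in MCM6 the words form 2 runs of 12 bases, each read as a word on both strands.
CLSPN: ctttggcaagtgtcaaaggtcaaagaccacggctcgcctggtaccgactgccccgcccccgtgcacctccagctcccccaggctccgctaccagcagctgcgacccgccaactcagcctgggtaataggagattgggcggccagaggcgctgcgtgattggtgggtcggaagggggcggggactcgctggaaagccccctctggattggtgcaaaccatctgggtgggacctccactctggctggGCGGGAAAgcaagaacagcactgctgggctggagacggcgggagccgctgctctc
CDC6: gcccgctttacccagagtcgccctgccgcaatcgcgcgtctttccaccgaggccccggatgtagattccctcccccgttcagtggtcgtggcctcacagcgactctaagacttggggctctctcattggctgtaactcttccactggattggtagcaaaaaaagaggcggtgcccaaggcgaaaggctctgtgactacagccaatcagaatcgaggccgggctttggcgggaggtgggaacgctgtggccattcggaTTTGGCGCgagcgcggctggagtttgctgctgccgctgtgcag
RFC3: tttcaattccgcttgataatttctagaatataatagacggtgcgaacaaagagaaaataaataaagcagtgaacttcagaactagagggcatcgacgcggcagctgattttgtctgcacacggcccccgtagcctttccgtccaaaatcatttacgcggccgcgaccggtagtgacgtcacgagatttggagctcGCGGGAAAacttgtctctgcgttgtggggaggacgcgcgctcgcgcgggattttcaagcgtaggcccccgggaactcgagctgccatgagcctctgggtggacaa
MCM6: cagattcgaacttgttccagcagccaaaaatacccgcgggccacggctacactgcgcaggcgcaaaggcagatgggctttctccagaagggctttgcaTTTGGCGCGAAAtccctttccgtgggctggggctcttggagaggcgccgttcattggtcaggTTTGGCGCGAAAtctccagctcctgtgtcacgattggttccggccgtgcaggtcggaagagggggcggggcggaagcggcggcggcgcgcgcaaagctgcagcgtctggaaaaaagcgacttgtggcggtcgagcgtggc
MCM3: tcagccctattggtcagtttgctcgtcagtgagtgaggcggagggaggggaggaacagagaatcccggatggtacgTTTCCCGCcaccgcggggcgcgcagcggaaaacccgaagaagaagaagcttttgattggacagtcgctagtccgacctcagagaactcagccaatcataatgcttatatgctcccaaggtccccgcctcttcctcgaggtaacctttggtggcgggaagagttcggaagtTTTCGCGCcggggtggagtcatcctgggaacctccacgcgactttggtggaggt
MCM10: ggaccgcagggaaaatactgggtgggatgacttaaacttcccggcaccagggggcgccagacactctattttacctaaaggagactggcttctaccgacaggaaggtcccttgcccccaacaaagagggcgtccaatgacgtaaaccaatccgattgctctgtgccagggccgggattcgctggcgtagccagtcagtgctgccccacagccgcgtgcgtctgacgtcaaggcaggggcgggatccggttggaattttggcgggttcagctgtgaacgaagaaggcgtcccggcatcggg

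Of the 6 genes of the origin recognition complex, which marks where replication can start, 4 rose and all had a log2 fold change above 0 (median 0.66). ORC5 intensities were 249.5, 174 and 243 on the shNT arrays and 395, 428 and 450.5 on the shPKCi arrays, every shPKCi array above every shNT array. Its log2 fold change was 0.95 log2 units (SE 0.14, adjusted p = 0.00170), or 1.93-fold. ORC6, the smallest subunit and the one least tightly held in the human complex, read 484, 391 and 462 on the shNT arrays and 767, 784 and 747 on the shPKCi arrays, again with no overlap, for a change of 0.79 log2 units (SE 0.11, adjusted p = 0.000956). ORC4 stood at 103, 60.3 and 92.2 on the shNT arrays and 139, 137 and 127 on the shPKCi arrays, with shNT replicate 2 well below the other controls, and changed by 0.69 log2 units (SE 0.18, adjusted p = 0.0238). Intensities of ORC2 were 359, 277 and 372 on the shNT arrays and 575, 533 and 443 on the shPKCi arrays, and the change was 0.63 log2 units (SE 0.14, adjusted p = 0.0141). Both groups were apart in these 4 genes. ORC1, the subunit that is broken down and remade each cell cycle, overlapped between groups at 149.9, 119.7 and 132 on the shNT arrays and 146, 172 and 178 on the shPKCi arrays; its log2 fold change was 0.31 log2 units (SE 0.12, adjusted p = 0.118), with a 95% interval of 0.04 to 0.58. ORC3, at 0.18 (adjusted p = 0.351), also overlapped, and was at 0.10 without shNT replicate 2. Each of the 6 genes had its lowest shNT value on replicate 2, and without that array the 4 changes were 0.78, 0.70, 0.46 and 0.49 in the order above (adjusted p = 0.000786, 0.000855, 0.00951 and 0.0211). ORC2 did not pass without shPKCi replicate 1 or 2 (adjusted p = 0.0654 and 0.0585), nor ORC4 without shPKCi replicate 1, 2 or 3 (0.0833, 0.0767 and 0.0552).

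CDC6, the ATPase that joins the origin recognition complex to load the helicase, rose, while its partner CDT1 did not. CDC6 read 943, 749.6 and 926 on the shNT arrays and 1494, 1459.9 and 1436 on the shPKCi arrays, with the shPKCi arrays within a narrow range above the controls. This is a log2 fold change of 0.75 log2 units (SE 0.11, adjusted p = 0.00155), or 1.68-fold; it was 0.65 without shNT replicate 2. CDT1, which brings the MCM2-7 ring to the origin, had intensities of 74.1, 69.4 and 74.1 on the shNT arrays and 66.3, 62.6 and 55.2 on the shPKCi arrays: the groups were apart with shPKCi the lower. Its log2 fold change of -0.24 log2 units (SE 0.10, adjusted p = 0.142) did not pass, with a 95% interval of -0.48 to -0.01, and CDT1 lay near the middle of the signal range, at the 48.2th percentile of genes. GMNN, the CDT1 inhibitor, stood at 214, 159.9 and 217 on the shNT arrays and 236, 235 and 237 on the shPKCi arrays, and its change was 0.27 log2 units (SE 0.13, adjusted p = 0.186). The GMNN difference was 0.13 without shNT replicate 2, the lowest of its values, at an adjusted p of 0.306.

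None of the 6 genes of the MCM2-7 helicase ring passed the test, and 1 had an unadjusted p under 0.05 in limma (MCM4). Their median log2 fold change was -0.01, with 3 above and 3 below 0. MCM2 read 168, 180.3 and 188 on the shNT arrays and 183, 176 and 183 on the shPKCi arrays, fully overlapping, for a log2 fold change of 0.02 log2 units (SE 0.09, adjusted p = 0.942) and a 95% interval of -0.19 to 0.23. MCM7 read 646, 596 and 559 on the shNT arrays and 543, 579.8 and 624 on the shPKCi arrays, also overlapping, for -0.04 log2 units (SE 0.10, adjusted p = 0.837) and an interval of -0.27 to 0.19. Neither interval reaches the log2 fold change of any member that passed. Intervals of members that passed can overlap these 2, as that of FEN1 did at 0.12 to 0.55. The difference from those members was not tested. MCM3 and MCM5 were at 0.10 and -0.09 (adjusted p = 0.613 and 0.582). MCM4 was higher on each shPKCi array, at 539, 590.0 and 591 on the shNT arrays and 717, 701 and 659 on the shPKCi arrays, with a change of 0.27 log2 units (SE 0.09, adjusted p = 0.0784). MCM4 passed when arrays were weighted (adjusted p = 0.0214), when the variance was trended and robust (0.0387), when dim genes were left out (0.0306) and after median centring (0.0419). MCM6 went the other way: its intensities were 450.2, 314 and 428 on the shNT arrays and 317, 329 and 333 on the shPKCi arrays, so that shNT replicate 2 lay just below the shPKCi arrays and the other 2 controls above them. With all arrays the MCM6 change was -0.27 log2 units (SE 0.14, adjusted p = 0.236); without shNT replicate 2 it was -0.43 (adjusted p = 0.00792), a fall, and with array weights -0.39 (adjusted p = 0.0110).

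**Figure D2:**
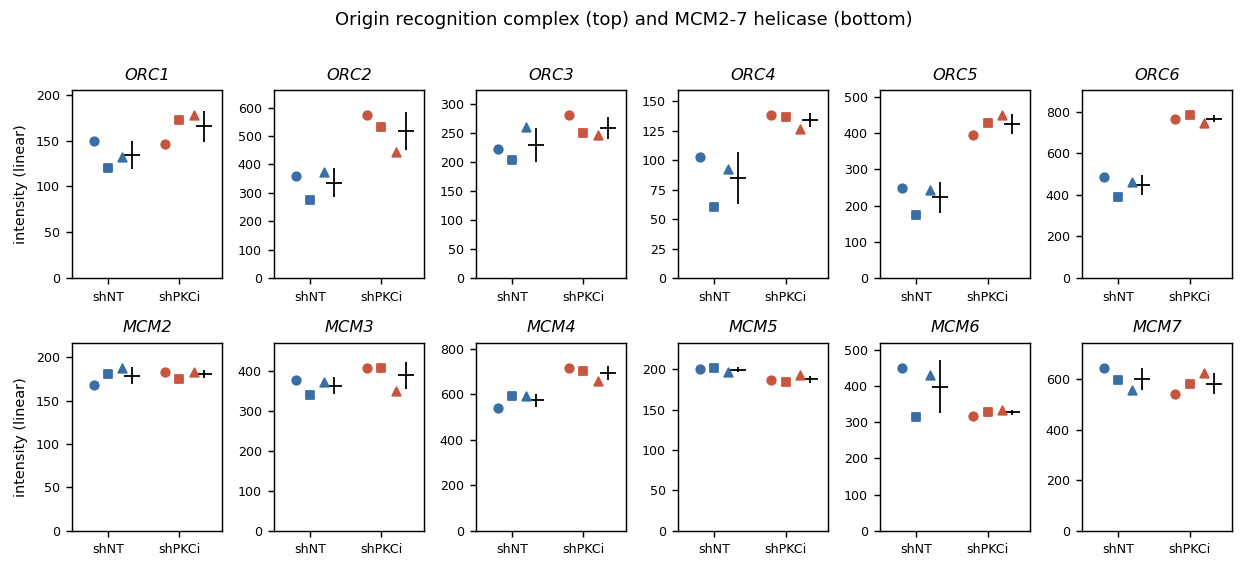
Intensity on a linear scale (y axis, from 0 in each panel) of the 6 genes of the origin recognition complex (top row) and the 6 genes of the MCM2-7 ring (bottom row) in shNT (blue) and shPKCi (red); points are single arrays with the marker shape giving the replicate number, and the black cross is the mean with its SD (n = 3). ORC2, ORC4, ORC5 and ORC6 show separate groups, and in MCM6 the shNT replicate 2 square sits close to the shPKCi points.

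MCM8 and MCM10, the members with an MCM name that are not part of the ring, both rose. MCM10, which helps switch the loaded helicase on, read 435, 414 and 438 on the shNT arrays and 692, 752 and 745 on the shPKCi arrays, for a log2 fold change of 0.77 log2 units (SE 0.09, adjusted p = 0.000498), or 1.70-fold; this was the smallest adjusted p of the 46. Its value moved little without shNT replicate 2, to 0.74. MCM8, whose helicase acts with MCM9 in recombination repair, read 538, 513 and 582 on the shNT arrays and 792, 778 and 699 on the shPKCi arrays, with a change of 0.47 log2 units (SE 0.10, adjusted p = 0.00988). Its partner gene MCM9 and MCMBP, which encodes an MCM-binding protein, are outside the 46 and did not pass, at 0.19 (adjusted p = 0.252) and 0.30 (adjusted p = 0.0682). MCM8 missed the threshold without shPKCi replicate 2 (adjusted p = 0.0525).

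The kinase that fires origins has a catalytic subunit, CDC7, and an activating subunit, DBF4, whose level normally sets its activity. DBF4 read 23.7, 21.2 and 25.5 on the shNT arrays and 38.8, 40.7 and 39.5 on the shPKCi arrays, with no overlap, and rose by 0.76 (SE 0.10, adjusted p = 0.000861). Its signal was dim, at the 27.9th percentile of genes; detection calls were not used here, so that the probe set was not shown to be above background and the size of the change is uncertain. CDC7 stood at 524, 389 and 509.7 on the shNT arrays and 472, 491 and 467 on the shPKCi arrays; its change was 0.02 log2 units (SE 0.13, adjusted p = 0.947), with an interval of -0.26 to 0.30. The sign of the CDC7 value turned without shNT replicate 2 (-0.12, adjusted p = 0.376). The difference between the 2 subunits' changes was not tested.

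Genes of CDC45 and GINS, which together with MCM2-7 form the moving helicase, were all above 0 (0.21 to 0.38), and 2 of 5 passed. CDC45 read 369.7, 311 and 316 on the shNT arrays and 423, 425 and 439 on the shPKCi arrays, for a log2 fold change of 0.37 log2 units (SE 0.10, adjusted p = 0.0307). GINS2 read 377, 339 and 322 on the shNT arrays and 459.6, 446 and 442 on the shPKCi arrays, for 0.38 log2 units (SE 0.10, adjusted p = 0.0244). In both, each shPKCi array was above each shNT array. GINS1 and GINS3 were also apart, at 0.21 (adjusted p = 0.175) and 0.32 (adjusted p = 0.0672), and GINS4 overlapped at 0.35 (adjusted p = 0.103). In GINS3 and GINS4 shNT replicate 2 was the highest control: GINS3 read 65.3, 81.5 and 70.0 on the shNT arrays and 90.9, 91.6 and 87.4 on the shPKCi arrays. Without that array GINS3 rose by 0.41 (adjusted p = 0.0103) and GINS4 by 0.43 (adjusted p = 0.0445), so that 4 of the 5 passed. CDC45 and GINS2 each missed the threshold without shNT replicate 3 or without any 1 of the shPKCi arrays (adjusted p = 0.0885 to 0.0995 and 0.0660 to 0.0929).

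Primase and polymerase alpha lay the RNA and DNA primers from which each new strand grows, and 3 of their 4 genes rose by similar amounts. POLA1, the catalytic subunit of polymerase alpha, read 473, 406 and 499 on the shNT arrays and 607, 598 and 608 on the shPKCi arrays, with a change of 0.40 log2 units (SE 0.10, adjusted p = 0.0253). POLA2, its regulatory subunit, read 185, 215 and 185 on the shNT arrays and 256, 253 and 284 on the shPKCi arrays, with 0.44 log2 units (SE 0.10, adjusted p = 0.0172). PRIM1, the catalytic primase subunit, read 373, 397 and 376 on the shNT arrays and 515, 484 and 506 on the shPKCi arrays, with 0.39 log2 units (SE 0.09, adjusted p = 0.0149). All 3 genes had separate groups. PRIM2, the large primase subunit, overlapped at 0.31 (adjusted p = 0.154), and was at 0.18 (adjusted p = 0.285) without shNT replicate 2. The 3 calls are close to the threshold: POLA1 was lost without shNT replicate 1 or any 1 shPKCi array (adjusted p = 0.0532 to 0.0858), POLA2 without any 1 array but shNT replicate 2 (0.0501 to 0.0716), and PRIM1 without any 1 shPKCi array (0.0503 to 0.0667).

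Of the genes for polymerases delta and epsilon, which extend the lagging and leading strands, 1 of 5 rose. POLE2, a small subunit of polymerase epsilon, read 99.6, 61.4 and 81.0 on the shNT arrays and 128, 123 and 105 on the shPKCi arrays, with a wide spread among the controls. Its change of 0.58 log2 units (SE 0.17, adjusted p = 0.0386) was 0.40 without shNT replicate 2 (adjusted p = 0.0582), and the call held without shNT replicate 1 alone of the 6 arrays (0.0519 to 0.137 in the other 5 fits). POLE, the catalytic subunit of the same enzyme, read 159.8, 184 and 167 on the shNT arrays and 159, 176 and 175 on the shPKCi arrays, overlapping throughout, at 0.00 log2 units (SE 0.10, adjusted p = 0.999) with an interval of -0.22 to 0.23. POLD1, POLD2 and POLD3 were at -0.15, -0.20 and 0.19 (adjusted p = 0.575, 0.254 and 0.380). Without shNT replicate 2 POLD3 was at 0.04 (adjusted p = 0.764) and POLD1 at -0.23 (adjusted p = 0.361).

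PCNA, the sliding clamp that holds polymerases on DNA, did not rise, and 1 of its 5 loader genes did. PCNA read 1512, 1279.8 and 1580.1 on the shNT arrays and 1373, 1279.5 and 1245 on the shPKCi arrays, so that shNT replicate 2 lay with the shPKCi arrays; its change was -0.16 log2 units (SE 0.11, adjusted p = 0.383), with an interval of -0.41 to 0.08. Without shNT replicate 2 the PCNA value was -0.25 (adjusted p = 0.0799). RFC3 read 715, 630.2 and 752 on the shNT arrays and 919, 1000.0 and 1020.0 on the shPKCi arrays, with no overlap, and changed by 0.49 log2 units (SE 0.10, adjusted p = 0.0101); it missed the threshold without shPKCi replicate 2 (adjusted p = 0.0505). RFC1, the large subunit of the loader, lay below the controls on each shPKCi array, at 925, 797 and 1006 on the shNT arrays and 741, 690.5 and 755 on the shPKCi arrays. The RFC1 change of -0.31 log2 units (SE 0.11, adjusted p = 0.0825) did not pass with all arrays, and it was -0.41 (adjusted p = 0.0141) without shNT replicate 2. RFC1 also passed after cyclic loess (adjusted p = 0.0133), quantile normalization (0.0130), a trended robust variance (0.0452), array weights (0.00663) and among genes above the median signal (0.0382). RFC2, RFC4 and RFC5 were at 0.06, 0.07 and 0.10 (adjusted p = 0.758, 0.791 and 0.504); without shNT replicate 2 RFC2 was at -0.02 and RFC4 at -0.08.

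Of the nuclease and the ligase that join lagging strand fragments, the first passed. FEN1, the flap nuclease, read 819, 735 and 726 on the shNT arrays and 926, 953 and 998 on the shPKCi arrays, apart from the controls, for 0.34 log2 units (SE 0.10, adjusted p = 0.0372). That call is among the weakest: it was lost after cyclic loess (adjusted p = 0.115) and quantile normalization (0.117), and without shNT replicate 3 or any 1 shPKCi array (0.0872 to 0.125). LIG1, the ligase, was below the controls on each shPKCi array, at 163, 153 and 153 on the shNT arrays and 126, 139 and 129.6 on the shPKCi arrays; its change of -0.25 log2 units (SE 0.09, adjusted p = 0.101) passed among genes above the median signal (adjusted p = 0.0406) and not with all genes.

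CLSPN, which encodes claspin, the adaptor that couples stalled forks to the checkpoint kinase CHK1, had the largest change of the 46. Its intensities were 535, 298 and 437 on the shNT arrays and 879, 865 and 857 on the shPKCi arrays; the shPKCi arrays were nearly equal and the controls spread, with shNT replicate 2 lowest. The log2 fold change was 1.07 log2 units (SE 0.18, adjusted p = 0.00312), or 2.11-fold, and 0.84 without shNT replicate 2 (adjusted p = 0.00103). The other CLSPN probe set gave 66.9, 48.8 and 78.8 on the shNT arrays and 174, 169 and 159.8 on the shPKCi arrays, a difference of 1.40 log2 units. TIMELESS, the fork protection protein that moves with the helicase, overlapped at 0.06 (adjusted p = 0.749). Its 95% interval was -0.15 to 0.26. The RPA genes, whose products coat single-stranded DNA, did not pass, and none had an unadjusted p under 0.05 in limma. RPA1 read 276, 271 and 267 on the shNT arrays and 242, 252 and 259 on the shPKCi arrays, at -0.11 log2 units (SE 0.09, adjusted p = 0.467), and RPA2 and RPA3 were at 0.11 and -0.10 (adjusted p = 0.492 and 0.681); RPA3 was at -0.22 (adjusted p = 0.195) without shNT replicate 2.

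**Figure D3:**
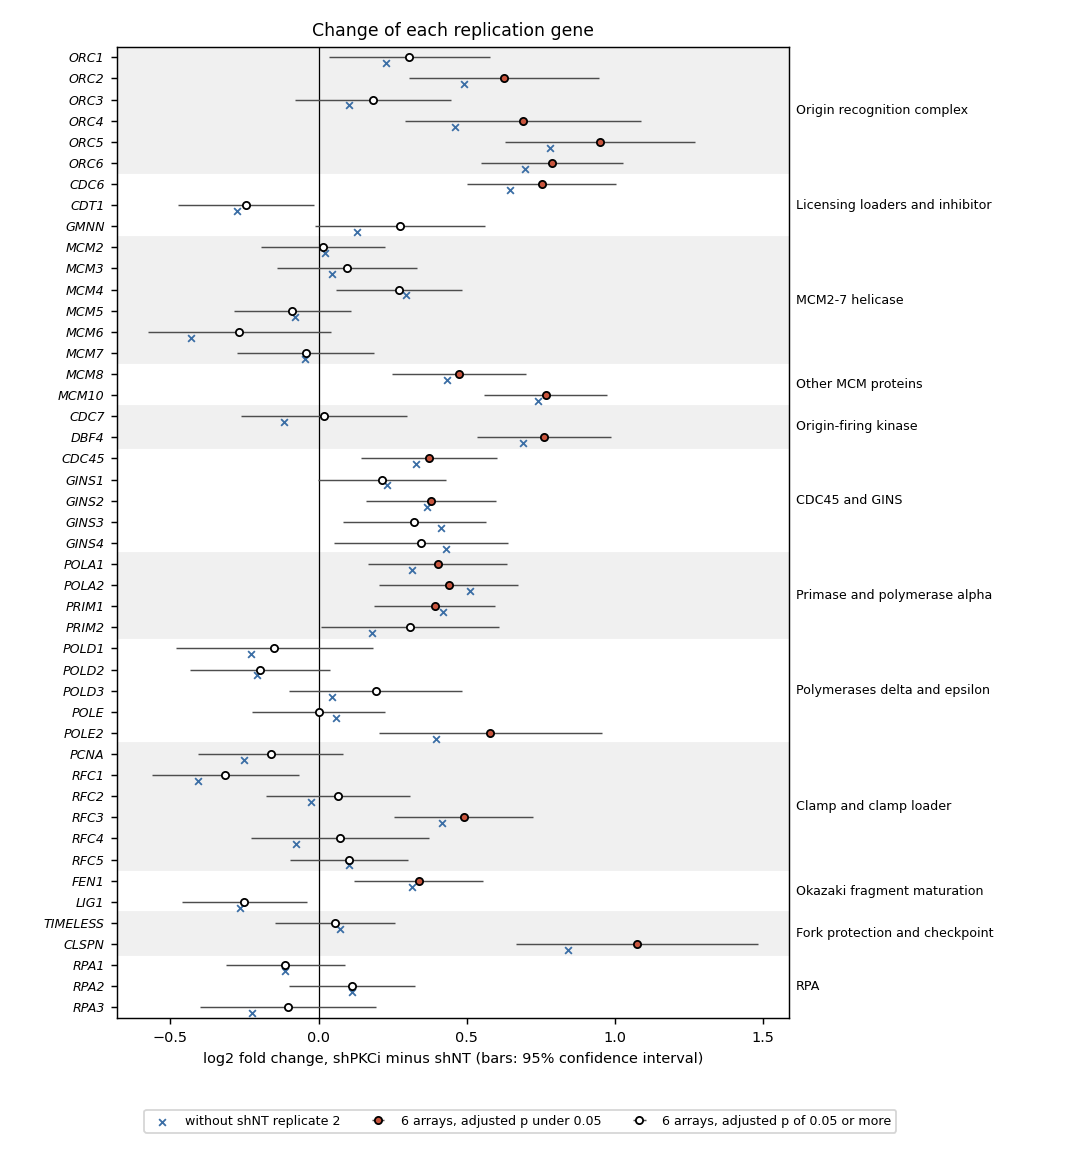
Log2 fold change of each of the 46 genes, shPKCi minus shNT (x axis), with genes grouped by role (y axis); filled points passed an adjusted p under 0.05 with all 6 arrays, open points did not, bars are 95% confidence intervals from limma, and crosses give the value without shNT replicate 2. The 17 filled points run from 0.34 to 1.07, and the 6 genes of the MCM2-7 ring lie between -0.27 and 0.27.

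Replication factors outside the 46 were read from a list of 37, and 8 rose and 1 fell of 37 measured (median 0.19); the background shares above apply to this and the following lists. TIPIN, the partner of TIMELESS, rose by 1.19 (SE 0.20, adjusted p = 0.00263), with intensities of 534, 292 and 444 on the shNT arrays and 1028, 850.5 and 935 on the shPKCi arrays that did not overlap. DSCC1, a subunit of an alternative clamp loader, rose by 0.92, POLE3, an accessory subunit of polymerase epsilon, by 0.58, DONSON, which helps assemble the active helicase, by 0.51, and TICRR, which carries kinase signals to origins, by 0.48 (adjusted p from 0.00393 to 0.0120). RNASEH2A, the catalytic subunit of the nuclease that removes ribonucleotides from DNA, was the 1 that fell, by 0.58 (adjusted p = 0.00600). DONSON missed the threshold without shPKCi replicate 2 (adjusted p = 0.0604).

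Genes that govern entry into S phase and supply deoxynucleotides moved in both directions. Of the G1/S regulators 9 rose and 3 fell of 29 measured (median 0.14). CDC25A, the phosphatase that activates CDK2, rose by 1.59 (SE 0.09, adjusted p = 9.15e-06), reading 162, 167 and 153 on the shNT arrays and 463, 484 and 503 on the shPKCi arrays, well apart from the controls. CCND1 and CCND2, which encode D cyclins, rose by 1.13 and 0.80, their kinase gene CDK6 by 1.05, and SKP2, which marks CDK inhibitors and CDT1 for breakdown, by 0.61. RBL2, a pocket protein that represses E2F targets in resting cells, fell by 0.67 (adjusted p = 0.00236). The other 2 that fell were CDKN1A, a CDK inhibitor gene, at -0.56, and TFDP2, which encodes an E2F partner, at -0.57; both were named after their values were seen. Among deoxynucleotide genes 6 rose and 2 fell of 13 measured (median 0.18). RRM2, the S phase subunit of ribonucleotide reductase, rose by 0.62, while RRM2B, its p53-induced counterpart, fell by 1.52 and TYMS, thymidylate synthase, by 0.79. CTPS1, SAMHD1 and DTYMK rose by 0.73, 0.65 and 0.59. SAMHD1 breaks deoxynucleotides down. The adjusted p of these genes lay at or below 0.00384.

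Of mitotic genes 20 rose and 0 fell of 29 measured (median 0.55), and 0 were lower at an unadjusted p under 0.05 in limma. FOXM1, the transcription factor of mitotic genes, rose by 0.75, the kinase gene PLK1 by 0.68, CDC20 by 0.70, CDCA8 by 0.80, the proliferation marker MKI67 by 0.67 and BIRC5 by 0.79 (adjusted p at or below 0.00479). As in the replication genes, shNT replicate 2 was the lowest control in 23 of the 29; without it 21 rose, with a median of 0.45. Of recombination and repair genes 7 rose and 1 fell of 24 measured (median 0.11), among them the checkpoint kinase gene ATR at 0.86, RAD51AP1 at 0.77, XRCC2 at 0.68, EXO1 at 0.64, FANCM at 0.64 and BLM at 0.54 (adjusted p at or below 0.00790). The 1 that fell was RAD54B, at -0.42, named after its value was seen. Whether the lists differ from the 46 genes was not tested.

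**Figure D4:**
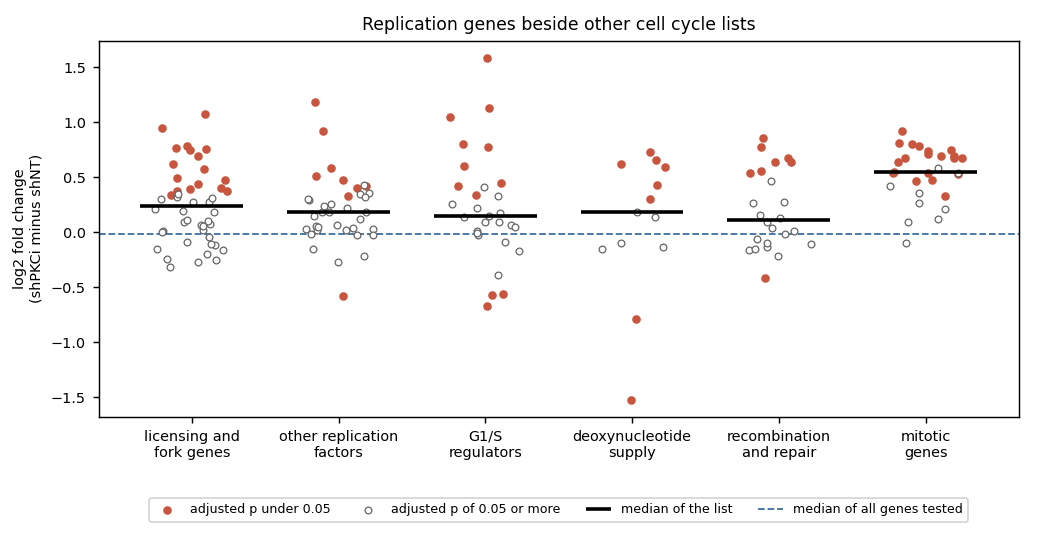
Log2 fold change (y axis, shPKCi minus shNT) of the 46 licensing and fork genes beside 5 other lists (x axis); each point is a gene, filled where the adjusted p was under 0.05, black bars are list medians and the dashed line is the median of all genes (-0.02). The median is 0.24 for the replication genes and 0.55 for the mitotic genes, and the lowest point is RRM2B at -1.52.

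The labelled cell type was checked against its markers. Basal epithelial markers were bright, with KRT5 and KRT14 at the 99.6th and 97.1th percentiles of signal. Of 14 basal markers listed 11 were measured, and of 13 luminal markers 9. Of the 11 basal markers 10 lay above the median signal, but so did 4 of 9 luminal and 7 of 15 mesenchymal markers. The luminal keratin genes KRT8, KRT18 and KRT19 were at the 95.9th, 96.3th and 95.8th percentiles and DPP4 at the 90.4th, while the secretory gene KLK3 was at the 32.6th. Of the mesenchymal genes SPARC was at the 98.4th and VIM at the 91.5th. The brightest gene of the mesenchymal list was at the 99.97th, above KRT5. The endothelial marker PECAM1 was at the 17.9th and the blood cell marker PTPRC at the 1.17th, with 1 of 14 in their list above the median; no gene is listed at 0. Marker levels moved beside the replication genes. Of 11 basal markers 6 fell and none rose (limma; 1 was higher at an unadjusted p under 0.05), and their summed intensity ran from 17458 to 19606 on the shNT arrays and from 14531 to 14944 on the shPKCi arrays. Of 15 mesenchymal markers 5 fell (ACTA2, TAGLN, FAP, SPARC and COL1A1) and none rose (0 higher at an unadjusted p under 0.05), with sums from 12324 to 13274 on the shNT arrays and from 10335 to 10860.3 on the shPKCi arrays. Luminal markers fell in 3 of 9 (ACP3, DPP4 and KRT19) and rose in none (1 higher at an unadjusted p under 0.05), with sums from 3972 to 4761 on the shNT arrays and from 3966 to 4132 on the shPKCi arrays. Endothelial and blood markers rose in 1 (CD3D) and fell in 1 (KDR) of 14, with sums from 527 to 563 on the shNT arrays and from 497 to 515 on the shPKCi arrays, and neuroendocrine markers rose in 1 (FOXA2) and fell in 1 (ENO2) of 11, with sums from 504 to 536 on the shNT arrays and from 379 to 421 on the shPKCi arrays. Without shNT replicate 2 the luminal markers KRT8 and KRT18 rose, by 0.45 and 0.40 (adjusted p = 0.00698 and 0.0361), the luminal median went from -0.24 to -0.06, and the basal marker LAMB3 rose by 0.30 (adjusted p = 0.0394); 3 luminal and 6 basal markers fell in that fit. The marker genes in parentheses, and those of this fit, were named after their values were seen. The part of these markers in the changes of the replication genes was not tested.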

How the data were processed

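Biotin-labelled RNA of each of the 6 samples was read on its own array, per the labels. The authors deposited probe set intensities on a linear scale for 32321 probe sets; RMA is named in the submitters' processing notes, without a version, and the return from log2 to linear values was inferred from the values. The annotation build is not given in the sources used here. Intensities were transformed to log2. Probe sets with 1 symbol in the platform annotation (19158; 1388 had several and 11775 were not listed) were kept, the brightest per gene, giving 18404 genes with no filter on low values; 42 members lie above the median signal. The model was limma's lmFit and eBayes (version 3.58.1, R 4.3.3) on all 6 arrays without covariates, with two-sided p-values adjusted by Benjamini-Hochberg over all genes at a threshold of 0.05; intervals are 95% and unadjusted. The fit was also run on simulated data with independent noise of equal spread on every array. Such data cannot show how the fit handles an array such as that of shNT replicate 2. P-values set the difference between the group means against the spread between samples of a group, which eBayes moderates over all genes. That spread is between samples of the same hairpin group, with the number of hairpin sequences or clones not given.

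The members and lists were chosen with earlier results of these data known. By the rule for named genes, all 46 members are accounted for, with values per array where a member passed or was listed, and up to 6 genes by smallest adjusted p from each other list; further values per array were added after they were seen. The alternatives tried were each array left out, a block for replicate number, median centring, cyclic loess, quantile normalization, genes above the median signal, the mean of a gene's probe sets, a trended robust variance, array weights, a threshold of 0.01 and treat against a fold of 1.2.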

Additional observations from a re-analysis of the deposited data

How the results depend on the processing

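The 3 arrays a group and intensities without detection calls limit what can be told, chiefly for dim genes. Of the 46 genes, 17 rose and 0 fell in the fit as reported. The number that rose ran from 6 to 18 in the fits without 1 array, and the number that fell from 0 to 2. Over all genes these numbers ran from 997 to 1935 and from 1048 to 1959. At an adjusted p under 0.01, 7 rose, and 6 did with treat against a fold of 1.2. These are stricter tests, in which 870 and 503 of all genes rose. The number that fell was 1 after cyclic loess, 1 after quantile normalization and 1 with a trended robust variance, and 2 among genes above the median signal and 2 with array weights. Of all genes, 1858, 1697, 1794, 1580 of 9202 and 2336 fell in those fits, in that order. Between 15 and 19 rose under the other settings. Of all genes, 1537 rose with the replicate block and 2321 with array weights, the lowest and highest counts of these settings. Median centring shifted the median of all genes from -0.02 to 0.04. The members' median of 0.24 became 0.30 after median centring, 0.16 after cyclic loess, 0.17 after quantile normalization and 0.19 with array weights. PRKCI kept its direction and its call under every setting run.

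The replicate block gave 15 members higher and 0 lower, with CDC45 (adjusted p = 0.0605) and FEN1 (0.0833) lost. Same-numbered samples correlated at 0.12, -0.06 and -0.18 in their deviations from the group means. The labels link them by that number only. Deviations of 3 arrays sum to 0 in each gene, so that these values cannot show whether such samples shared a plating or batch. The highest correlation of any 2 arrays of the 2 groups was 0.21, between shNT replicate 2 and shPKCi replicate 3.

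Signs turned in 8 members with small log2 fold changes. After cyclic loess MCM2 was at -0.00511, CDC7 at -0.0603, POLE at -0.0158 and RFC4 at -0.0324; after quantile normalization CDC7 was at -0.0480. With array weights CDC7 was at -0.0725, RFC2 at -0.0282 and RFC4 at -0.0238, and with median centring MCM7 was at 0.0128. Leaving out 1 array, the ranges were -0.0280 to 0.0528 for MCM2, -0.0948 to 0.0109 for MCM7, -0.118 to 0.0972 for CDC7, -0.257 to 0.00491 for POLD1, -0.0435 to 0.0577 for POLE, -0.0247 to 0.115 for RFC2, -0.0754 to 0.180 for RFC4 and -0.225 to 0.0372 for RPA3. The cause of these shifts was not tested.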
